A study of Mus musculus with 4 samples.

Results

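The genes described here are 47 genes of TGF-beta, Nodal and BMP signalling, out of 28478 genes with a probe on the array. They were taken as all gene probes whose array name was 1 of 47 preset symbols, which gave 71 probes printed as 107 spots. By role they are 11 ligands, 12 receptors and co-receptors, 7 Smads, 7 antagonists, 5 genes of latency and processing and 5 target genes. Of the 47, 42 had a probe that entered the main test. Lefty1, Smad6, Chrd and Tgfbi did not, because the scanner software had marked the background of their spots on at least 1 array, and they are given from a separate fit that ignored those marks. Cer1, which encodes the Nodal and BMP inhibitor Cerberus, was not well above background in any of the RNAs and has no value.

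Transcripts were measured on 4 whole-genome oligonucleotide arrays with 2 colours. Each array carried RNA of the mouse embryonic stem (ES) cell line CGR8.8 in green. In red, 2 arrays carried RNA of mouse embryonic fibroblasts (MEFs) taken after several passages, and 2 carried RNA of a clone of induced pluripotent stem (iPS) cells taken 30 days after transduction. ES and iPS cells had been cultured with 1000 IU/ml of the cytokine LIF. The labels give no strain, sex or embryonic age, do not name the transduced factors and do not say whether feeder cells were present. The iPS RNA stands for 1 clone. The arrays of a group are labelled biological replicates, with no word on separate cultures. P-values therefore reflect only how far these samples spread, and that spread may be technical.

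Ligands of this family bind pairs of type I and type II receptor kinases, which phosphorylate receptor-regulated Smads. TGF-beta, activin and Nodal signal through Smad2 and Smad3, and BMPs through Smad1 and Smad5, with Smad4 as the shared partner and Smad6 and Smad7 as inhibitors. In mouse ES cells BMP signals sustain the Id genes, which together with LIF hold back differentiation, and Nodal drives its own inhibitors Lefty1 and Lefty2. In fibroblasts TGF-beta is known for its control of matrix genes.

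Values are log2 ratios of red over green after background correction and within-array normalization. Group values are means of 2 arrays ± the standard error of the limma fit. A gene was called higher or lower at a Benjamini-Hochberg adjusted p under 0.05 over 17620 genes with at least a 2-fold difference. In MEFs over ES cells 12 members were higher, 9 lower and 21 not called, where 13.8% of all genes tested were called higher and 13.6% lower (27.4% in either direction). In iPS over ES cells 2 were higher, 15 lower and 25 not called, beside 9.08% and 11.8% of all genes (20.9% in either direction). Between iPS cells and MEFs 8 were higher in iPS cells, 23 lower and 11 not called, beside 17% and 18.8% of all genes (35.8% in either direction). The same shares apply to the members' counts by role below, and counts near them are not read as results. The median log2 ratio of the 42 members was 0.47, -0.49 and -1.42 in the 3 comparisons in this order, and that of all genes -0.01, 0.01 and 0.03. The adjusted p of the called members lay between 9.86e-09 and 5.71e-07 for MEFs over ES cells, between 1.33e-08 and 1.43e-06 for iPS over ES cells and between 1.10e-08 and 5.87e-06 for iPS cells over MEFs (limma, n = 2 arrays per group).

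The background correction, normexp, was fitted over spots the scanner software had not marked as outliers. Fitted over all spots, 0 members were called in MEFs over ES cells by limma, with 7 of 42 at an unadjusted p under 0.05. Of all 17620 genes, 31 were called higher and 22 lower there. In MEF array 1, 14 spots with a local background above 500, all of them marked, had entered that fit. Of the 69 called member values 29 were then smaller by more than 1.5 times on the log2 scale, among them Nodal (-2.31), Lefty2 (-2.11) and Gdf3 (-1.63) in MEFs. With the same fit and without MEF replicate 1, 0 of the 69 called values moved by more than 1.5 times. That fit leaves 1 MEF array and so holds no spread of MEFs.

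**Figure D1:**
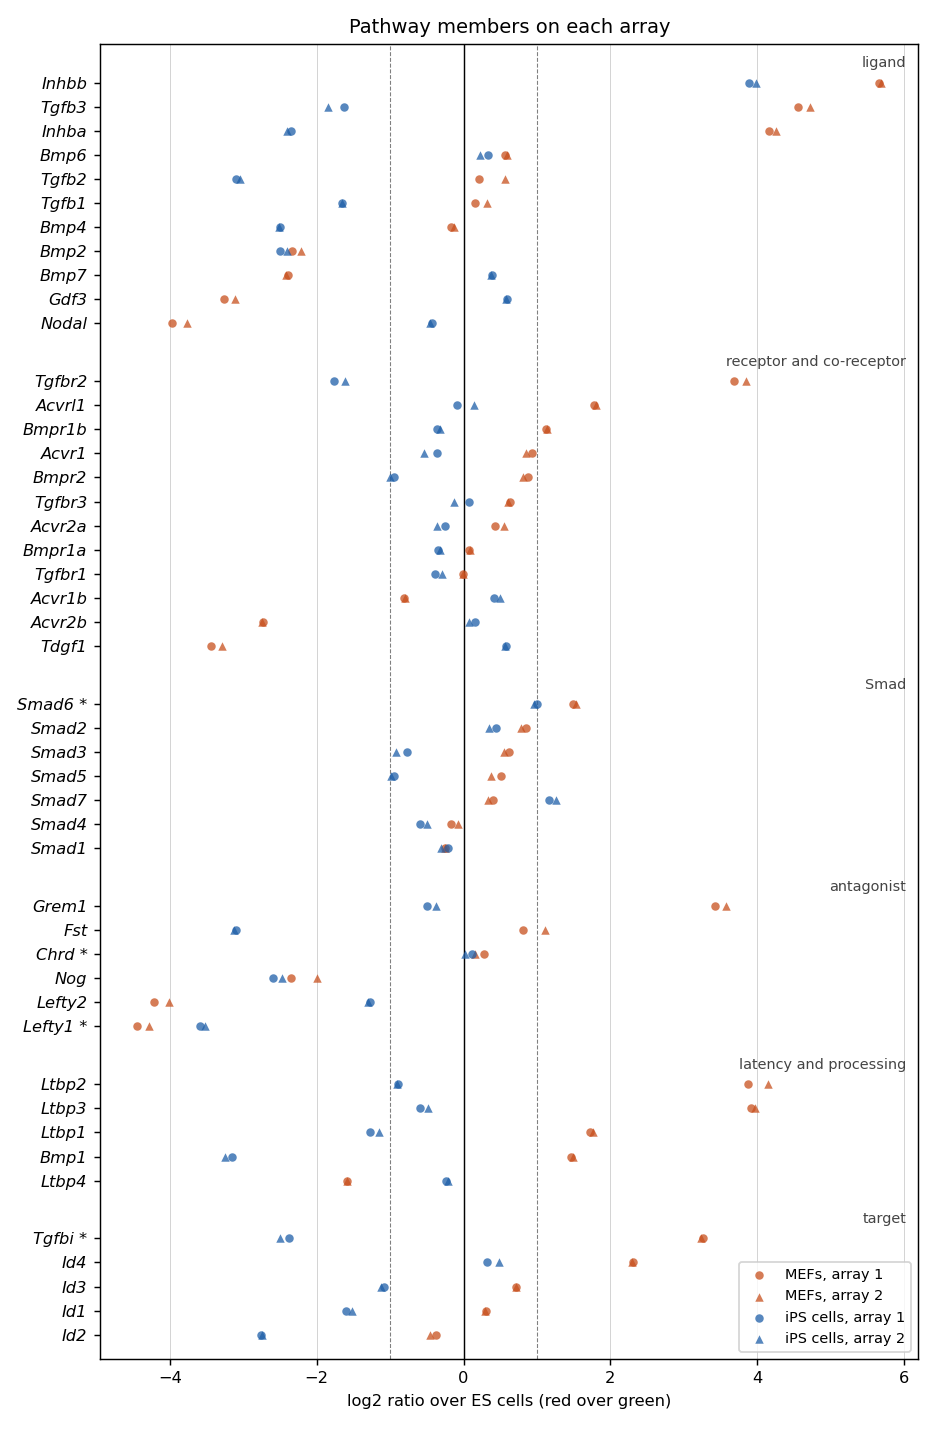
Log2 ratio over ES cells (horizontal axis) of each member on each of the 4 arrays, grouped by role and ordered by the MEF value. Orange points are MEF arrays and blue points iPS arrays, circles are replicate 1 and triangles replicate 2, dashed lines mark 2-fold, and genes with an asterisk come from the fit that ignored background marks. Replicate points lie close together, and Tgfb3, Inhba and Tgfbr2 lie far above 0 in MEFs and below 0 in iPS cells.

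The labelled cell types were set against their markers. All 5 pluripotency markers were lower in MEFs than in ES cells, and all 6 fibroblast markers higher. In iPS cells Nanog (2.27), Sox2 (1.19) and Esrrb (2.98) were higher than in ES cells, Zfp42 (-0.60) was not called and Pou5f1 (-1.35) was lower. ES cells also carried fibroblast transcripts. The summed intensity of the 6 fibroblast markers lay between 21143 and 29419 in ES RNA, between 465542 and 489194 in MEF RNA and between 1798 and 1877 in iPS RNA, where Prrx1 was not well above background. In iPS over ES cells 3 of the 6 were lower, Col1a1 by -5.77, Col1a2 by -4.58 and Pdgfrb by -1.49, and 3 were not called. Of the 6 macrophage markers tested, 2 were higher in MEFs than in ES cells, Lyz2 (4.88) and Adgre1 (1.36), and 1 lower, Cd68 (-1.69). In ES cells Adgre1 was not well above background. The summed level of the 6 macrophage markers lay between 7533 and 8554 in MEFs, between 1295 and 1549 in ES cells and between 734 and 762 in iPS cells. Among 4 endothelial markers Emcn was higher in MEFs (5.07) and Kdr lower (-1.54). In iPS over ES cells Pecam1 (2.09) and Tek (1.02) were higher, Kdr lower (-4.10) and Emcn not called. Among 4 extraembryonic endoderm markers Gata6 was higher in MEFs (1.23), and Foxa2 (-1.98) and Sox17 (-1.34) were lower. In MEFs Sox17 was not well above background. In iPS over ES cells Foxa2 was lower (-2.33) and the other 3 were not called. The part of such cells in the values below was not tested. In these bulk RNAs fewer cells of a type and less RNA per cell cannot be told apart.

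Among the ligands, Nodal, Gdf3 and Bmp7 were lower in MEFs than in ES cells by -3.87, -3.19 and -2.40, and in iPS cells none of the 3 differed from ES cells by 2-fold. Tgfb3 and Inhba, which encodes the activin A subunit, were higher in MEFs by 4.64 and 4.21 and lower in iPS cells by -1.74 and -2.38. Tgfb1, Tgfb2 and Bmp4 were within 2-fold of ES cells in MEFs and lower in iPS cells. Of the 11 ligands 3 were higher, 4 lower and 4 not called in MEFs over ES cells, and 1 was higher, 6 lower and 4 not called in iPS over ES cells. Over all genes 27.4% and 20.9% were called in either direction in these comparisons.

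Nodal, the ligand that signals through Smad2 and Smad3 in the early embryo, stood at -3.97 and -3.78 on the MEF arrays and at -0.43 and -0.45 on the iPS arrays. MEFs were 14.7-fold lower than ES cells, and iPS cells were higher than MEFs by 3.43 ± 0.082. The probe lies on the mouse build mm8 at chromosome 10, 60820399 to 60820458. Gdf3, a ligand of pluripotent cells that acts through Nodal receptors, stood at -3.26 and -3.12 on the MEF arrays and at 0.60 and 0.58 on the iPS arrays. Its probe lies at chromosome 6, 122572371 to 122572430. Bmp7 stood at -2.39 and -2.41 in MEFs and at 0.39 and 0.38 in iPS cells, and its other probe, printed 10 times, gave -2.48 for MEFs and 0.05 for iPS cells. For each of the 3 genes both MEF arrays lay below both iPS arrays.

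The start-site regions of Nodal and of Tdgf1, its co-receptor described further on, are shown because these genes were lower in MEFs together. They are the 250 bases before the RefSeq start on GRCm38.p6, at chr10:61417722-61417971 on the plus strand and chr9:110946159-110946408 on the minus strand. Capitals mark CAGAC or its reverse complement GTCTG, the letters of a Smad-binding element, and GGCGCC, the letters of a BMP-responsive Smad site that reads the same on both strands.
Nodal: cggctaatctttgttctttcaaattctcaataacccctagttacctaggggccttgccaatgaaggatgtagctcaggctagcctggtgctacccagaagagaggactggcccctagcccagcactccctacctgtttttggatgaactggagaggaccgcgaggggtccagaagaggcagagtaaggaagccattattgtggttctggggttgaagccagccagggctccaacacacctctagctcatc
Tdgf1: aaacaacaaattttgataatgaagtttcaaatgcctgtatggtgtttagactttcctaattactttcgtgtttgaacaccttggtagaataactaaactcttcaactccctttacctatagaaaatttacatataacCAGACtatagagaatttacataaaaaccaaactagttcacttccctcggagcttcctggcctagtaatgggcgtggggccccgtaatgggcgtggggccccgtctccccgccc
Neither motif is in the Nodal window, and CAGAC is in that of Tdgf1 in 1 place. Both strands were searched over 300 bases, 250 before and 50 after the start, in 32851 promoters, of which 49.6% hold CAGAC and 11.9% hold GGCGCC. Of the 47 members 32 had an entry, with 40 promoters in all, 19 with CAGAC and 13 with GGCGCC. Of these members 5 had several promoters, and windows of 1 gene can overlap, as for Ltbp4 and Smad5. GC content was not matched, so these counts are not read against the shares of all promoters. A match is a description of letters and not of binding.

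Tgfb3 stood at 4.56 and 4.72 on the MEF arrays and at -1.64 and -1.84 on the iPS arrays. It was 25.0-fold higher in MEFs than in ES cells, 3.34-fold lower in iPS cells than in ES cells and 83.3-fold lower in iPS cells than in MEFs. Its probe lies on mm8 at chromosome 12, 86945957 to 86946016. Inhba stood at 4.16 and 4.25 in MEFs and at -2.35 and -2.41 in iPS cells, which made it 96.0-fold lower in iPS cells than in MEFs. In the red channel alone, with no ES reference, Inhba differed between them by -8.02 and Tgfb3 by -7.14 on the log2 scale, against -6.58 and -6.38 in the fit. Its probe lies at chromosome 13, 15817688 to 15817747. Both genes were high on both MEF arrays and low on both iPS arrays. Tgfb2 stood at 0.21 and 0.57 in MEFs and at -3.10 and -3.04 in iPS cells, and Tgfb1 at 0.16 and 0.31 in MEFs and at -1.66 and -1.65 in iPS cells. So the 3 TGF-beta genes were each lower in iPS cells than in ES cells, by -1.66 ± 0.053 for Tgfb1, -3.07 ± 0.083 for Tgfb2 and -1.74 ± 0.067 for Tgfb3, and only Tgfb3 of them was called in MEFs over ES cells.

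The BMP ligands did not follow 1 pattern. Bmp4, which sustains Id gene expression in ES cells, stood at -0.17 and -0.13 in MEFs and at -2.5 and -2.51 in iPS cells, 5.69-fold lower in iPS than in ES cells. Over its 10 spots the standard deviation was between 0.024 and 0.10 on each array. Bmp2 stood at -2.33 and -2.22 in MEFs and at -2.5 and -2.41 in iPS cells, where it was not well above background. It was at least 5.45-fold lower in iPS than in ES cells. Such bounds take, on each array of the dim group, the higher of the gene's own signal and the lowest signal among probes well above background. The MEF and iPS arrays did not differ by 2-fold (-0.18 ± 0.074). Bmp6 lay between 0.22 and 0.59 on the 4 arrays and was not called in any comparison. For the dim Bmp2 the ratio of the scanner software, which adds no offset, was larger, -4.08 in MEFs and -5.35 in iPS cells.

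Inhbb, which encodes the activin B subunit, was the ligand higher than in ES cells in both cell types, with 5.66 and 5.69 in MEFs and 3.89 and 3.98 in iPS cells. It was 51.2-fold higher in MEFs and 15.3-fold higher in iPS cells, and lower in iPS cells than in MEFs by -1.74 ± 0.066. A dimmer probe of the gene gave 0.96 for MEFs, 0.16 for iPS cells and -0.80 for iPS cells over MEFs, none of them called. The result therefore rests on 1 probe, at chromosome 1, 121243052 to 121243111 on mm8. With normexp fitted over all spots the value for iPS cells over MEFs turned to 0.76 (adjusted p = 0.80 by limma).

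Among the receptors, Tgfbr2 and Tdgf1 lay at opposite ends. Tgfbr2, the type II receptor that binds TGF-beta, was 13.6-fold higher in MEFs than in ES cells and lower in iPS cells, and Tdgf1 (Cripto), the co-receptor that Nodal needs, was 10.3-fold lower in MEFs. Of the 12 receptors and co-receptors 3 were higher, 2 lower and 7 not called in MEFs over ES cells. Tgfbr2 was the 1 gene called in iPS over ES cells, where it was lower and 11 were not called. Against MEFs, 3 were higher in iPS cells, 5 lower and 4 not called. Over all genes 27.4%, 20.9% and 35.8% were called in either direction in the comparisons in this order.

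Tgfbr2 stood at 3.68 and 3.85 on the MEF arrays and at -1.77 and -1.62 on the iPS arrays, a difference of -5.46 ± 0.087. Its probe lies on mm8 at chromosome 9, 115936735 to 115936794, and 2 other probes were not tested. Tgfbr1, the type I receptor that pairs with it, lay within 0.01 of 0 on both MEF arrays and at -0.39 and -0.30 on the iPS arrays and was not called. Tdgf1 stood at -3.44 and -3.30 in MEFs and at 0.58 and 0.57 in iPS cells, with its probe at chromosome 9, 110785566 to 110785625. Acvr2b, a type II receptor for activin and Nodal, stood at -2.73 and -2.75 in MEFs and at 0.16 and 0.07 in iPS cells. The type I receptor Acvr1b stood at -0.81 and -0.80 in MEFs and at 0.42 and 0.49 in iPS cells, and was called only between these 2 (1.26 ± 0.064). Thus Tdgf1, Acvr2b and Acvr1b were each higher in iPS cells than in MEFs, and none of the 3 was called between iPS and ES cells.

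The BMP type II receptor Bmpr2 stood at 0.88 and 0.81 in MEFs and at -0.94 and -1.0 in iPS cells, and Acvr1, a type I receptor for BMPs, at 0.93 and 0.85 in MEFs and at -0.36 and -0.54 in iPS cells. Both were lower in iPS cells than in MEFs, by -1.81 ± 0.066 and -1.34 ± 0.081, and neither was called over ES cells. With median centring both were called higher in MEFs over ES cells (1.32 and 1.16). A further tested Bmpr2 probe was called in MEFs over ES cells (1.39). Bmpr1b stood at 1.13 and 1.14 in MEFs and at -0.36 and -0.32 in iPS cells, where it was not well above background, so that it was at least 2.69-fold lower there than in MEFs. Acvrl1 (ALK1), known from endothelial cells, stood at 1.78 and 1.81 in MEFs and was not well above background in ES and iPS cells. It was at least 3.47-fold higher in MEFs than in ES cells, and it was called lower in iPS cells than in MEFs, with no fold given because the bound exceeded the fit. Bmpr1a, Acvr2a and Tgfbr3 were not called in any comparison, with array values between -0.36 and 0.63. In iPS cells Tgfbr3 was not well above background.

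Of the 6 Smads tested, which carry the signal inside the cell, Smad7 in iPS cells was the 1 called over ES cells. In MEFs over ES cells 0 of the 6 were called (1 with median centring, Smad2 at 1.17), and the group values ran from -0.25 (Smad1) to 0.81 (Smad2). Over all genes 27.4% were called there in either direction, and 20.9% in iPS over ES cells. Without the 2-fold limit, 5 of the 6 Smads had an adjusted p under 0.05 in MEFs over ES cells (limma). At an unadjusted p under 0.05 it was also 5 of the 6. Of all 17620 genes, 7173 were higher and 7519 lower at that adjusted p, so this count is not read as a result. Smad7, the inhibitor induced by TGF-beta, stood at 0.41 and 0.33 in MEFs and at 1.16 and 1.27 in iPS cells, which made it 2.32-fold higher in iPS than in ES cells. Its difference between iPS cells and MEFs was 0.84 ± 0.071, under 2-fold. Smad3 stood at 0.63 and 0.55 in MEFs and at -0.78 and -0.92 in iPS cells, and Smad5 at 0.51 and 0.37 in MEFs and at -0.95 and -1.0 in iPS cells. They were lower in iPS cells than in MEFs by -1.44 and -1.41. A further Smad5 probe gave -0.15 in that comparison and, of 2 further Smad3 probes, 1 gave -1.67 and 1 gave -0.80. Smad1, Smad2 and Smad4 were not called in any comparison. With background marks ignored Smad6, the BMP-induced inhibitor, stood at 1.49 and 1.54 in MEFs and at 1.00 and 0.96 in iPS cells, called higher in MEFs over ES cells (1.52 ± 0.045).

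The Nodal antagonists Lefty1 and Lefty2 were lower than in ES cells in both cell types, and Dand5, another such antagonist from the further pathway genes, was not called (-0.02 in MEFs and 0.04 in iPS cells). Lefty2 stood at -4.21 and -4.02 on the MEF arrays and at -1.28 and -1.31 on the iPS arrays, 17.4-fold lower in MEFs and 2.45-fold lower in iPS cells. Its probe lies on mm8 at chromosome 1, 182734521 to 182734580. Lefty1 stood at -4.45 and -4.29 in MEFs and at -3.59 and -3.53 in iPS cells, 20.7-fold and 11.8-fold lower, with background marks ignored on 3 arrays. Its probe lies at chromosome 1, 182774681 to 182774740. So iPS cells were higher than MEFs for Lefty2 by 2.82 ± 0.081 and for Lefty1 by 0.81, which was not called. The genes are close paralogs, and the longest run their 60-base probes share is 7 bases.

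The inhibitors of activin and BMP split. Fst, which encodes the activin-binding follistatin, stood at 0.82 and 1.11 in MEFs and at -3.11 and -3.13 in iPS cells, 8.69-fold lower in iPS than in ES cells. In MEFs over ES cells it was not called (0.96), while with median centring it was (1.43). Without MEF replicate 1 the value was 1.11, that of the 1 MEF array left. Nog, the BMP inhibitor noggin, stood at -2.35 and -2.0 in MEFs and at -2.60 and -2.48 in iPS cells, lower than in ES cells in both. Grem1, the BMP inhibitor gremlin 1, stood at 3.42 and 3.58 in MEFs and at -0.50 and -0.37 in iPS cells, where it was not well above background. It was 11.3-fold higher in MEFs than in ES cells. Chrd, the BMP inhibitor chordin, lay between 0.02 and 0.28 with background marks ignored and was not called.

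Genes that store or activate the ligands were mostly higher in MEFs. Ltbp1, Ltbp2 and Ltbp3 encode proteins that hold latent TGF-beta in the matrix or resemble those that do, and were higher in MEFs than in ES cells by 1.74, 4.01 and 3.94. Ltbp4 was lower, by -1.59 ± 0.043. Ltbp1 stood at 1.72 and 1.76 in MEFs and at -1.27 and -1.16 in iPS cells. Ltbp2 stood at 3.87 and 4.15 in MEFs and at -0.89 and -0.90 in iPS cells. Ltbp3 stood at 3.91 and 3.98 in MEFs and at -0.59 and -0.48 in iPS cells, and its other tested probe gave 1.45 and 0.38 for the 2 groups. Ltbp4 stood at -1.59 on both MEF arrays and at -0.24 and -0.21 on the iPS arrays. Bmp1, a protease that cleaves procollagens and the BMP inhibitor chordin, stood at 1.46 and 1.49 in MEFs and at -3.16 and -3.25 in iPS cells. On its other probe the iPS value was -1.23, also called. All 5 genes were called between iPS cells and MEFs, 4 lower in iPS cells and Ltbp4 higher (1.36), beside 35.8% of all genes.

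Of the targets, Id1, Id2 and Id3 were lower in iPS cells than in ES cells and within 2-fold of ES cells in MEFs. Id proteins are helix-loop-helix factors that block differentiation factors and are classic BMP targets. Id1 stood at 0.30 and 0.29 in MEFs and at -1.6 and -1.52 in iPS cells, 2.95-fold lower in iPS than in ES cells. Id2 stood at -0.38 and -0.46 in MEFs and at -2.76 and -2.75 in iPS cells, 6.74-fold lower. Id3 stood at 0.71 and 0.72 in MEFs and at -1.09 and -1.13 in iPS cells, 2.16-fold lower, and with median centring this was -0.76 and no longer 2-fold, while in MEFs Id3 was then called higher (1.23). Id4 had another pattern, with 2.31 and 2.30 in MEFs and 0.32 and 0.48 in iPS cells, higher in MEFs than in ES cells and not called in iPS cells. The further probes gave -1.6 for Id1, -2.08 for Id2 and 0.04 for Id4 in iPS over ES cells. All 4 Id genes were lower in iPS cells than in MEFs, by -1.86, -2.33, -1.82 and -1.91. With background marks ignored Tgfbi, a matrix protein named for its induction by TGF-beta, stood at 3.27 and 3.24 in MEFs and at -2.38 and -2.5 in iPS cells, 51.6-fold lower in iPS cells than in MEFs.

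The start-site regions of Id2, Id3 and Id4 are shown because Id2 and Id3 were lower in iPS than in ES cells and Id4 was not called there. They are the 250 bases before the RefSeq start on GRCm38.p6, at chr12:25096093-25096342 (minus strand), chr4:136143572-136143821 (plus) and chr13:48260866-48261115 (plus), with capitals as above.
Id2: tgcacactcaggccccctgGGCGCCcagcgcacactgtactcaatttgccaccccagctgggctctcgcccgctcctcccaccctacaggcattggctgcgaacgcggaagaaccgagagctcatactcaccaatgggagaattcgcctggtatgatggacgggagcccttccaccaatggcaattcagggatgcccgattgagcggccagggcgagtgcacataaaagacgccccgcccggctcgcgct
Id3: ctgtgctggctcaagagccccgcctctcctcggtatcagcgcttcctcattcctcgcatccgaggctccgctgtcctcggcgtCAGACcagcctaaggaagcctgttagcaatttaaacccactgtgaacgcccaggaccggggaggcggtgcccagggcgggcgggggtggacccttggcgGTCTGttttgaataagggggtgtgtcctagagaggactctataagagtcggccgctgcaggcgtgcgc
Id4: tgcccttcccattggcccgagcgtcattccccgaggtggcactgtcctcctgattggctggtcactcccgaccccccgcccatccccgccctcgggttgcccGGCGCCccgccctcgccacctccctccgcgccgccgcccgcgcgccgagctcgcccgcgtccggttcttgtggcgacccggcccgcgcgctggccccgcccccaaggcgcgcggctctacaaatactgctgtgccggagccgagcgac
GGCGCC is in the windows of Id2 and Id4, in 1 place each, and CAGAC or GTCTG in 2 places in that of Id3. Id1 had no promoter entry. A part of these motifs in the iPS values was not tested.

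**Figure D2:**
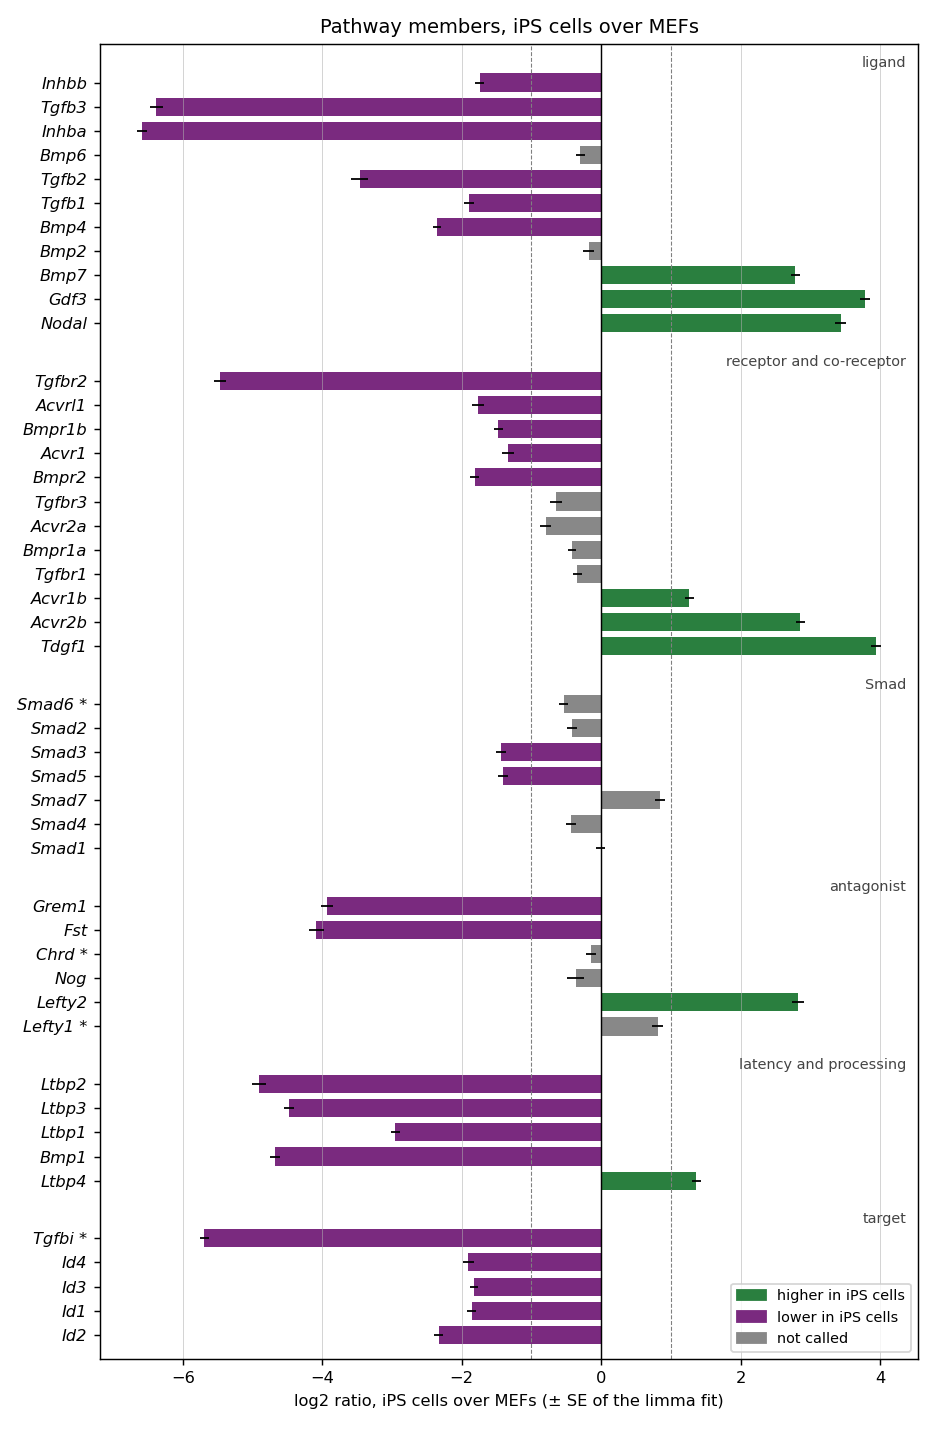
Log2 ratio of iPS cells over MEFs for each member (horizontal axis), with bars to the coefficient of the limma fit and whiskers of 1 standard error, in the same order as the plot of values by array. Green bars are called higher in iPS cells, purple bars lower and grey bars not called, and an asterisk marks the fit that ignored background marks. The longest bars are those of Inhba (-6.58) and Tgfb3 (-6.38) below 0 and Tdgf1 (3.94) and Gdf3 (3.78) above it.

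**Figure D3:**
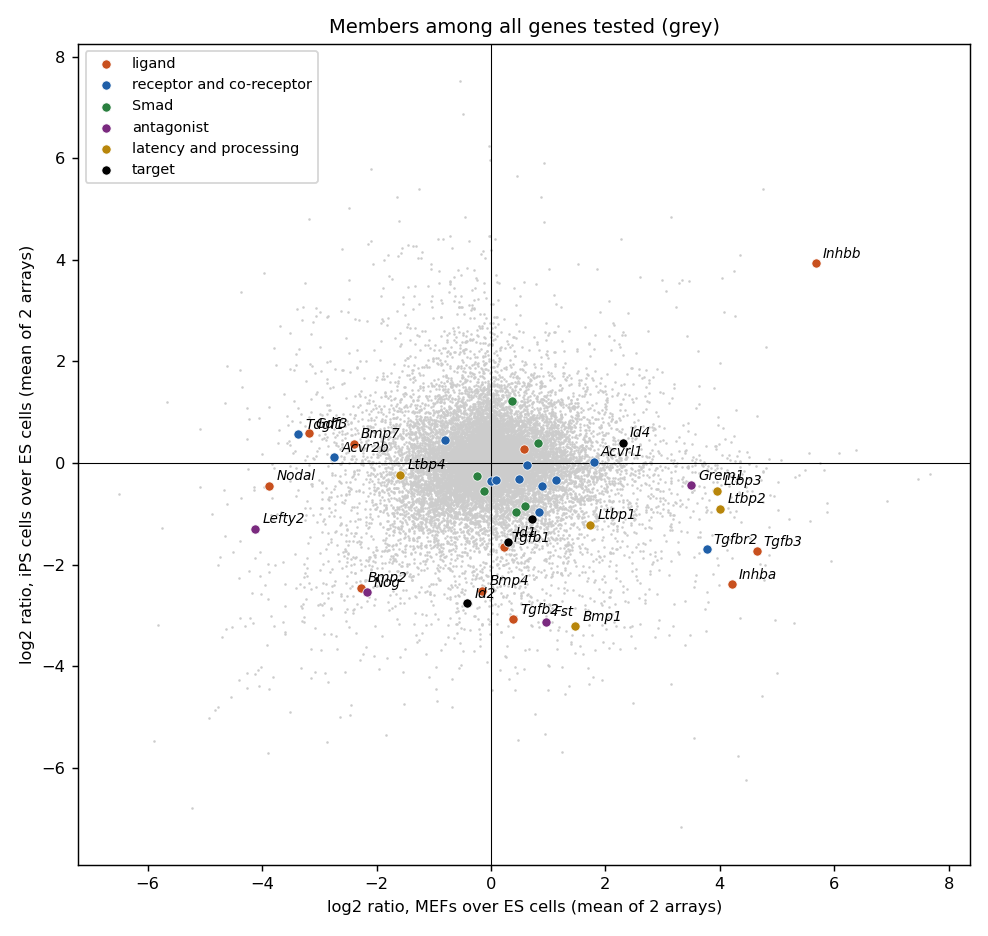
Members by role (coloured points) among all 17620 genes tested (grey), with the log2 ratio of MEFs over ES cells on the horizontal axis and of iPS over ES cells on the vertical axis. The axes share the ES cells as reference, so the cloud's shape is not read. Inhbb lies alone among the members at the upper right, and Bmp2, Nog and Lefty2, called lower in both, lie at the lower left.

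The ES level itself differed between the arrays for some of these genes, which bears on the largest values. In green, the ES signal of Grem1 was 8.46 and 8.28 (log2 intensity) on the MEF arrays and 6.56 on both iPS arrays. For Inhba it was 10.9 and 10.6 on the MEF arrays against 9.35 and 9.22. The ES signal on the MEF arrays exceeded that on the iPS arrays by 1.81 for Grem1, 1.44 for Inhba, 1.03 for Ltbp2, 0.93 for Ltbp3, 0.76 for Tgfb3 and 0.52 for Tgfbr2, and by at most 0.27 for the other 36 members tested. Over all genes the median of this difference was 0.07, and 0.61% exceeded 0.5. Among the 102 genes higher in MEFs by more than 4 it exceeded 0.5 in 31.4%. The cause was not tested. For these 6 genes the ratio of MEFs over ES cells would be larger against the ES level of the iPS arrays, and for Grem1, called lower in iPS cells than in MEFs, no fold is given, because the bound from the red channels (48.2-fold) exceeded the fold of the fit (15.3-fold).

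Further genes of the pathway were taken from a list of 101 genes, of which 82 were tested. In MEFs over ES cells 30 were higher, 14 lower and 38 not called, beside 13.8% higher and 13.6% lower of all genes tested. In iPS over ES cells 5 were higher, 23 lower and 54 not called, beside 9.08% and 11.8%. Between iPS cells and MEFs 9 were higher in iPS cells, 34 lower and 39 not called, beside 17% and 18.8%. These shares also stand beside the counts by role that follow, and counts near them are not read as results. The standard errors of the values named next lay between 0.043 and 0.097 and their adjusted p between 9.86e-09 and 9.49e-06 (limma).

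Antagonists and genes of latency and processing made up most of the genes higher in MEFs. Of 13 further antagonists 8 were higher in MEFs than in ES cells and 0 lower by limma. Among the 8 were Bgn (5.31), a matrix proteoglycan, and Bmper (3.68), which binds BMPs. At an unadjusted p under 0.05 with no fold limit 10 of the antagonists were higher and 0 lower. With no fold limit, 7173 of all 17620 genes were higher and 7519 lower even at an adjusted p under 0.05 (limma). Passing without a fold limit is therefore not read as a result. Lower in iPS than in ES cells were 3 antagonists, Dcn (-3.39), a proteoglycan that binds TGF-beta, Fstl1 (-3.08) and Nbl1 (-2.57). Of 11 genes of latency and processing 9 were higher in MEFs and 1 lower, led by the fibrillins Fbn1 (4.86) and Fbn2 (2.79) and by Emilin1 (2.77). In iPS over ES cells 5 were lower and 2 higher. Adamts1, a matrix protease, stood at -3.63 there, Htra1, a secreted protease, at 2.61 and Pcsk6 (PACE4), a convertase that cleaves Nodal precursors, at 2.06. Between iPS cells and MEFs large differences in these roles were those of Dcn (-6.87), Fbn1 (-6.68), Adamts1 (-6.16), Fstl1 (-6.02) and Fbn2 (-4.07).

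Of 20 further targets tested, 7 were higher and 6 lower in MEFs over ES cells, and 1 was higher and 11 lower in iPS over ES cells. T (Brachyury), a mesoderm factor, was lower in both cell types, at -4.40 in MEFs and -4.27 in iPS cells. Klf10, an early TGF-beta response gene, stood at -3.22 in MEFs. The smooth-muscle protein gene Tagln stood at -4.0 in iPS over ES cells, and Ccn2, the connective tissue growth factor, at -3.37. Against MEFs, iPS cells had Acta2, smooth-muscle actin, at -6.17 and Ccn2 at -5.13. Beside these values, the fibroblast markers Col1a1, Col1a2 and Pdgfrb were lower in iPS than in ES cells as given above, and their part in the values was not tested.

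Of 10 further ligands 2 were higher and 2 lower in MEFs over ES cells. Bmp8b stood at -2.32 in MEFs and -2.47 in iPS cells, the 1 ligand of this list called in iPS over ES cells, and Gdf15, a stress-induced ligand, at 1.79 in MEFs. Gdf10 was at least 3.28-fold higher in MEFs than in ES cells, where it was not well above background, and at least 3.27-fold lower in iPS cells than in MEFs. Gdf1 was lower in iPS cells than in MEFs (-1.35). Of 7 further receptors and co-receptors Eng, endoglin, stood at 1.5 in MEFs and 1.25 in iPS cells, and the BMP co-receptor Rgma at 1.25 and -2.70. Amhr2, the receptor of anti-Müllerian hormone, stood at -1.01 in MEFs and 2.01 in iPS cells. Against MEFs, iPS cells had Rgma at -3.95, Amhr2 at 3.02 and Rgmb at -1.71. Of 21 Smad partners and regulators 2 were higher and 4 lower in MEFs over ES cells, and 2 lower in iPS over ES cells. Runx2, the bone factor that binds Smads, stood at 4.16 in MEFs, Pmepa1, a feedback inhibitor, at 2.03 and the corepressor Tgif2 at -1.89. In iPS cells the corepressor Skil stood at -1.64 and the ubiquitin ligase Smurf2 at -1.13. Against MEFs, Pmepa1 stood at -2.6 and Smurf1 at -1.61 in iPS cells, and Runx2 was called lower with iPS cells not well above background.

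**Figure D4:**
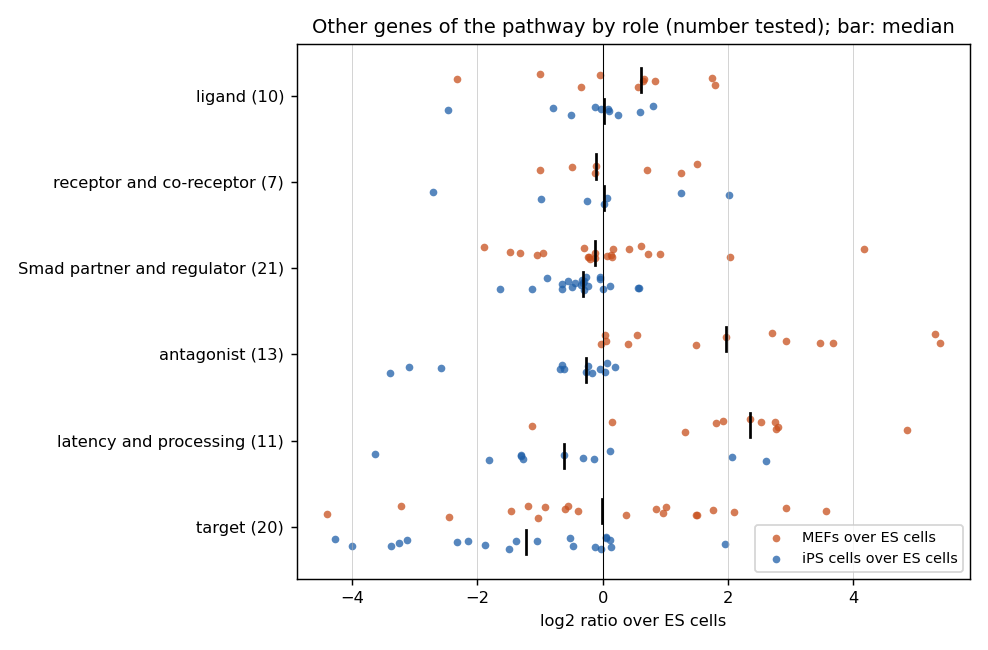
Log2 ratios over ES cells (horizontal axis) of the 82 further pathway genes tested, by role, with the number tested in parentheses. Orange points are MEFs, blue points iPS cells (each the mean of 2 arrays), and black bars are medians. Antagonists and genes of latency and processing have medians of 1.97 and 2.35 in MEFs, and targets a median of -1.22 in iPS cells.

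Among the 15 members with several tested probes, the probes of Inhbb lay farthest apart. Inhbb was called over ES cells on 1 of 2 probes. Bmp1 in iPS cells (-3.20 and -1.23) and Ltbp3 in MEFs (3.94 and 1.45) differed in size but not in call. For Ltbp1 in iPS over ES cells the brightest probe was called (-1.21) and the other was not (-0.26).

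**Figure D5:**
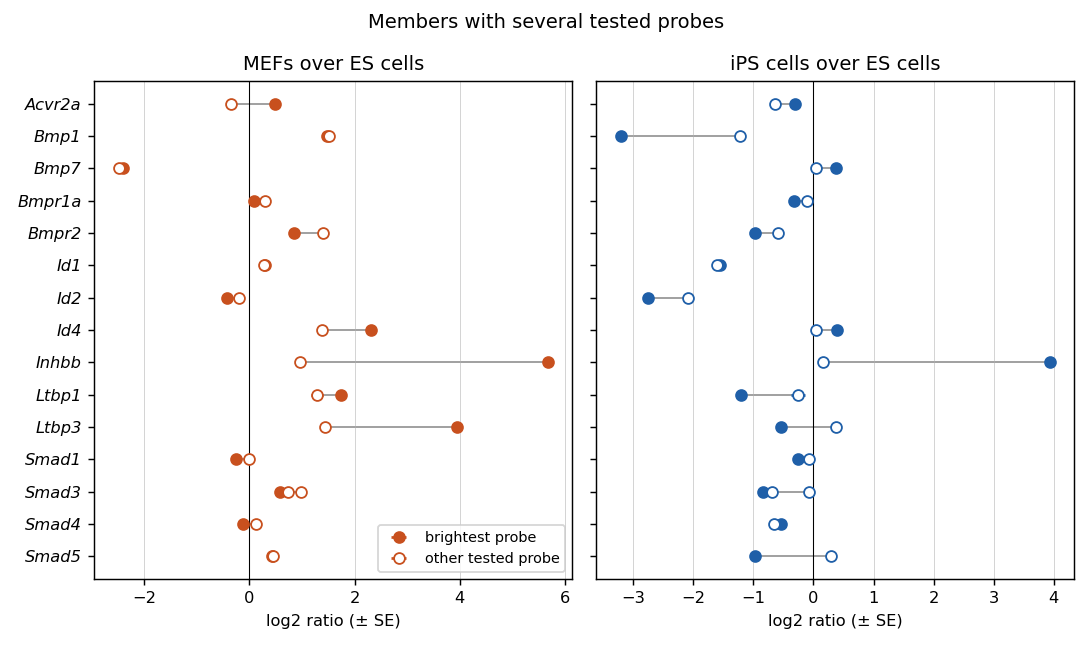
Log2 ratio over ES cells (horizontal axes, ± standard error) of each tested probe of the 15 members with several, for MEFs (left) and iPS cells (right). Filled points are the brightest probe, which stands for the gene, and open points the other tested probes. Most pairs lie within 1 log2 unit, and those of Inhbb lie at 5.68 and 0.96 in MEFs and at 3.93 and 0.16 in iPS cells.

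The replicate arrays of MEFs correlated at 0.99 and those of iPS cells at 0.994 in their log2 ratios across genes, which are not independent replicates. Per array, 62.0% to 63.4% of probes gave green signal well above background, and 61.1% to 63.2% gave such red signal. The number of arrays limits the precision.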

How the data were processed

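Total RNA (1 µg of each, per the labels' protocols) was measured on 4 Agilent arrays with 2 colours. The authors scanned at 5 micron and extracted the spots with Agilent Feature Extraction 10.5.1.1, per the file headers. For each spot and channel the deposited files hold a mean intensity and a local background intensity, not normalized. They also hold a log10 ratio of red over green that the scanner software derived from its processed signals, per the file headers. The series' value table equalled that ratio on every array (largest difference 0, median 0) and was an alternative. Probe coordinates are those of the array files, on mm8.

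Normexp (offset 50, fitted over unmarked spots) was applied in limma 3.58.1 (R 4.3.3, with the data.table package at version 1.17.8), followed by loess within arrays (span 0.3) in which control spots had weight 0. That way of fitting was adopted with its effect on the counts known. The offset pulls ratios of dim genes towards 0. Control spots and marked outliers were dropped and the spots of each probe averaged. A probe was tested if at least 1 of the RNAs lay well above background on each of its arrays (27725 of 41174 probes) and no array lacked a value (24874 probes). The brightest probe stood for its gene, 17620 genes in all. RefSeq accessions named 24375 probes and the array files the rest, and members were matched by array name.

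The model had a coefficient per group (lmFit and eBayes, residual degrees of freedom 2, prior 4.43) and was run on simulated data. These held independent noise and known changes in MEFs, without dye effects, marked spots or ES signals that differed between arrays. The simulation therefore cannot speak to those. Without a dye swap, an effect of the dyes on single genes remains in ratios over ES cells. It cancels in iPS cells over MEFs only where it is the same on all arrays. For genes whose ES signal differed between the arrays, as given above, this is not known. The ratio against 0 leaves out spread of the ES cells beyond that between these arrays. Slide and scan were shared by all arrays, so that position and group cannot be told apart. Where a group's arrays all fell short of well above background, this is stated or a bound is given (at least N-fold). The bound is taken from channel means after normalization between arrays, and dye bias can enter it.

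The members, the pathway list and the markers were chosen with earlier results of these data known. Members called in any comparison are given by array, the others by range. At most 3 further pathway genes per role and comparison are named, by size among those called, and some that the rule names are not reported here. Promoters are those of RefSeq on GRCm38.p6. Alternatives were the background correction and its offset, the normalization, marked spots, the filter on dim probes, the rule for several probes, the call thresholds, each replicate left out and a replicate block. The labels tie no MEF array to an iPS array of the same number.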

Additional observations from a re-analysis of the deposited data

Results flagged for a closer look

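For 5 members the MEF and iPS values were called in opposite directions over ES cells. The difference below is taken from these same 2 values. Its call by limma (n = 2 arrays per group) therefore follows from that choice and adds no support. Inhba stood at 4.21 in MEFs and -2.38 in iPS cells, a difference of -6.58 (adjusted p = 1.10e-08). Tgfb3 stood at 4.64 and -1.74, a difference of -6.38 (adjusted p = 1.65e-08). Tgfbr2 stood at 3.77 and -1.69, a difference of -5.46 (adjusted p = 1.93e-08). Bmp1 stood at 1.47 and -3.20, a difference of -4.68 (adjusted p = 1.56e-08). Ltbp1 stood at 1.74 and -1.21, a difference of -2.95 (adjusted p = 6.96e-08). The groups share the ES RNA as reference, whose signal on the MEF arrays exceeded that on the iPS arrays by 1.44 for Inhba, 0.76 for Tgfb3, 0.52 for Tgfbr2 and 0.20 for Bmp1 and Ltbp1.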

How the results depend on the processing

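With normexp fitted over all spots, 0 members were higher and 0 lower in MEFs over ES cells (limma, 7 of 42 at an unadjusted p under 0.05). There were 1 higher and 9 lower in iPS over ES cells, and 1 higher and 11 lower in iPS cells over MEFs. Over all 17620 genes the counts fell too, to 31 higher and 22 lower, 1195 and 1415, and 1064 and 1197 in the same order. Of 69 called values 29 were smaller by more than 1.5 times under this setting, and 29 also with marked spots kept. With marked spots kept the counts were 0 higher and 1 lower in MEFs over ES cells, 1 higher and 10 lower in iPS over ES cells, and 1 higher and 12 lower in iPS cells over MEFs. Of the 18985 genes then tested, 149 were higher and 131 lower, 1293 and 1579, and 1179 and 1369 in that order. Under both settings the value of Inhbb in iPS cells over MEFs turned to 0.76. Under the fit over all spots without MEF replicate 1, an alternative chosen after seeing the data, 0 of 69 called values moved by more than 1.5 times. At an adjusted p under 0.05 with no fold limit, 26 were higher and 13 lower in MEFs over ES cells, 9 higher and 30 lower in iPS over ES cells, and 9 higher and 31 lower in iPS cells over MEFs. Of all 17620 genes, 7173 were then higher and 7519 lower, 6990 and 7061, and 7290 and 6968 in the same order. Passing without a fold limit is therefore not read as a result about the members. With each replicate left out in turn, 0 of 69 called values moved by more than 1.5 times. These fits leave 1 array in a group, so their calls are not given. The replicate block gave 12 and 9, 2 and 15, and 8 and 23, the same counts as without it, and changed the call of 0 of 126 member values. Deviations of same-numbered arrays correlated at -0.12, and the crossed pairing, chosen after seeing the data, gave 12 and 9, 2 and 15, and 8 and 23. Median centring raised the median over all genes by 0.19 in MEFs and 0.17 in iPS cells over ES cells and split the calls of all genes 3632 higher to 1597 lower in MEFs, against 2432 to 2398, and 2624 to 1573 in iPS cells, against 1600 to 2077. Members were then 17 higher and 9 lower in MEFs, where Bmpr2 (1.32), Acvr1 (1.16), Smad2 (1.17), Fst (1.43) and Id3 (1.23) gained calls, and 2 higher and 14 lower in iPS cells, where Id3 lost its call. The ratio of the scanner software called 9 more of 126 member values and lost 0, and 8 of 69 called values were more than 1.5 times larger, among them Acvrl1 in MEFs (5.95). The mean over probes ended the calls of Smad5 in iPS cells over MEFs (-0.78) and Ltbp1 in iPS over ES cells (-0.74). Genes near background have compressed ratios, and 2 arrays per group limit the precision.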

Other observations

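Genes of the primitive streak that Nodal and BMP are known to induce had mixed values in iPS cells, and those named here were singled out after their values were seen. Mixl1, a mesendoderm factor, stood at -1.19 in MEFs and -1.05 in iPS cells, both called lower than ES cells. It was not well above background in MEFs or iPS cells, so the sizes of these values are uncertain. Eomes, another factor of the streak, stood at -1.47 in MEFs and 0.14 in iPS cells, called lower in MEFs and not called in iPS cells. Gsc stood at -0.40 and -0.03 and was not called in either. Hhex, a factor of the anterior endoderm, was higher in iPS cells (1.95) and stood at -0.92 in MEFs. Msx2, a BMP target, was higher in MEFs (2.10) and lower in iPS cells (-1.39).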
